A study of Drosophila melanogaster with 56 samples.

Results

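The genes described here are 10 components of the light response of the *Drosophila melanogaster* eye: the opsins *ninaE*, *Rh3*, *Rh4* and *Rh6*, the phospholipase C *norpA*, the cation channels *trp* and *trpl*, the myosin *ninaC*, and the arrestins *Arr1* and *Arr2*. They were taken by gene symbol from the 17490 genes of the count table, and all 10 were present. All 10 passed the filter on low counts, which left 15675 genes for testing. RNA was sequenced from pools of 30 mated whole flies, with the sexes kept apart, in 56 libraries of 8 genotypes. Every genotype was made in the Canton S (B) background by deleting the *Obp50a*, *Obp50b*, *Obp50c* and *Obp50d* cluster of odorant binding protein genes and putting a version of it back at the same place, so the deletion and reinsertion are shared by all groups, the intact control included. Obp50Pos carried the 4 intact genes. In Obp50Neg all 4 were stopped early in their coding sequence. Obp50a, Obp50b, Obp50c and Obp50d each kept the 1 gene they are named for, with the other genes stopped. In Obp50NegBCD the *Obp50a*, *Obp50c* and *Obp50d* genes were stopped, and *Obp50b* carried substitutions in conserved cysteines and an alanine. Obp50cBCD carried the same *Obp50b* allele beside an intact *Obp50c*. Obp50Pos and Obp50d were each represented by 1 line and 2 libraries per sex. The other 6 genotypes had 2 lines and 4 libraries per sex. The methods describe the adults used in the assays as a few days old and give no separate age for the flies collected for RNA.

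In fly photoreceptors, light turns an opsin into its active form, metarhodopsin, which acts through a G protein on phospholipase C, and this opens the TRP and TRPL channels in the packed microvilli of the rhabdomere. Arrestin then binds metarhodopsin and ends its activity, and the NINAC myosin helps to hold the calcium regulators of the cascade in place. NinaE is the opsin of the outer photoreceptors, which make up most of the light-sensing membrane of the eye, while Rh3, Rh4 and Rh6 are found in subsets of the inner photoreceptors.

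A single library each of Obp50Pos and Obp50cBCD females, which the study did not use because they failed to group with the other females, was set aside. This left 26 female and 28 male libraries, 54 in all. Female Obp50Pos was therefore a single library. Total counts over the 56 libraries ranged from 14638498 to 53517693 (median 26333703.5). Folder names in the file headers divide the libraries into a first set (39 libraries), a second (14) and a redo (3), without saying what a set is, and set and genotype were partly confounded. Summed yolk protein transcripts exceeded 100 CPM (a gene's count divided by the size of its library, on the usual CPM scale) in 8 of the 28 male libraries, where the lowest, median and highest values were 12.3, 24.1 and 2459 CPM, against 7123, 23015 and 33699.7 CPM in females. Replicate libraries of a line are not stated to come from separate cultures, so the p-values measure the spread between these libraries, which may in part be technical.

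In release 6 of the genome annotation, which the authors used, the opsin genes lie on chromosomes 3R and 3L. *ninaE* (FBgn0002940) spans 19886255 to 19888206 on 3R with 5 exon blocks. *Rh3* (FBgn0003249) spans 20081060 to 20082450 on 3R as a single exon block. *Rh6* (FBgn0019940) spans 15483158 to 15484699 on 3R. *Rh4* (FBgn0003250) spans 16852527 to 16862517 on 3L, and its intron holds *sina*, *sinah* and *CG13029* on the other strand. *norpA* (FBgn0262738) is the X-linked member, from 4322626 to 4365408, and with 8296 exon bases it has the most of the 10. *trp* (FBgn0003861) lies on 3R from 29914521 to 29920289 and *trpl* (FBgn0005614) on 2R from 9753697 to 9765518. *ninaC* (FBgn0002938) and *Arr1* (FBgn0000120) lie on 2L, from 7377702 to 7384344 and from 18078269 to 18081307. *Arr2* (FBgn0000121) lies on 3L from 8647261 to 8648936. None of the 10 shared an exon base with another gene (0 bases each). Counting ignored strand, so antisense reads within an exon would be counted with the gene.

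Per kb of exon, *ninaE* was far above the other members. Its mean was 1072 ± 243 CPM per kb (SD, n = 26) in females and 1692 ± 323 (SD, n = 28) in males, and its mean over all libraries held rank 58 among the 15675 genes. *Arr2*, the main arrestin of the outer photoreceptors, came next with 269 ± 61.95 CPM per kb in females and 457 ± 85.5 in males (rank 266). *Arr1*, the second visual arrestin, followed with 92.8 ± 22.2 and 139.8 ± 21.4 CPM per kb (rank 715). These 3 steps were each larger than the spread between libraries of a sex. *ninaC*, *trp*, *norpA* and *trpl* then lay close together. Their female means were 36.03, 34.4, 31.4 and 31.0 CPM per kb and their male means 67.9, 67.5, 59.4 and 67.5, and these neighbours did not differ beyond the spread between libraries. The opsins of inner photoreceptors were lowest, with means of 30.5 and 49.6 CPM per kb for *Rh3* in females and males, 27.03 and 41.02 for *Rh4*, and 18.03 and 32.3 for *Rh6*. In females the mean of *Rh3* was within the spread of the channel genes. The order from *ninaE* to *Arr2* to *Arr1* was the same in both sexes.

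**Figure D1:**
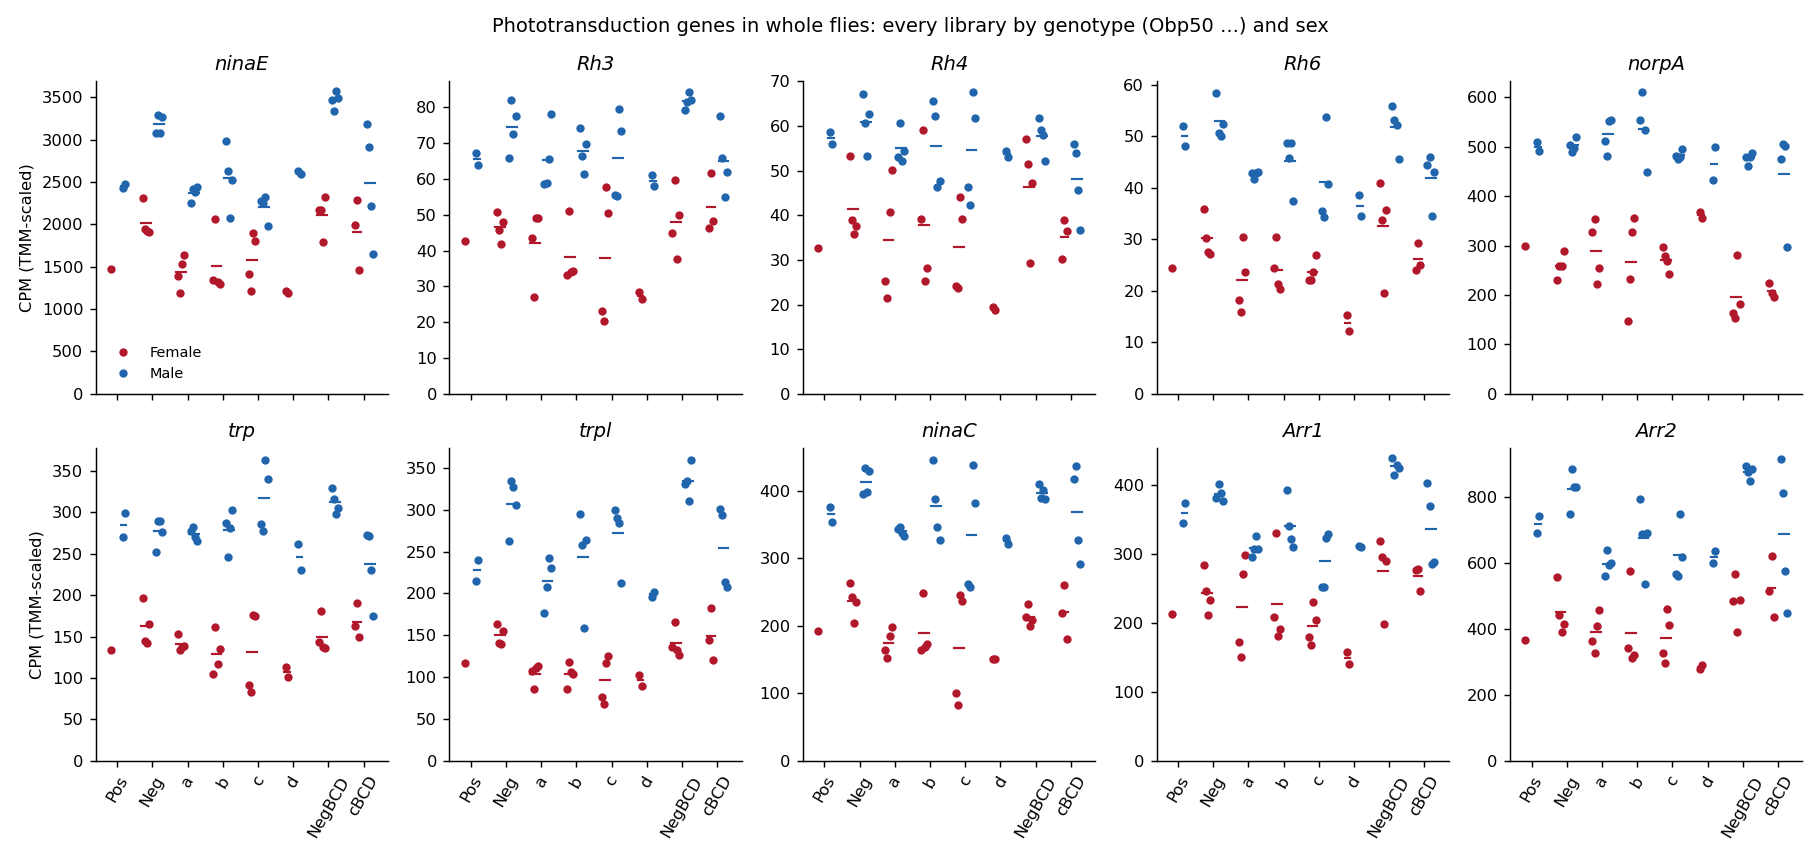
CPM of the 10 phototransduction genes in each of the 54 libraries (vertical axis, TMM-scaled CPM, from 0), by genotype (horizontal axis) and sex (red, female; blue, male); points are libraries and short bars are group means. Male libraries lie higher in every panel, and for *ninaC* 24 of the 26 female libraries are below the lowest male library.

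On TMM-scaled counts all 10 genes were lower in females than in males, by 1.55-fold (*Arr1*) to 2.15-fold (*trpl*). The comparison asks how the sexes differ in transcripts of these 10 genes when RNA is taken from the whole body. There, fewer cells of a type, less RNA per cell and a larger share of RNA from other tissues cannot be told apart. Counts from whole flies also do not show which tissue a transcript came from. All 10 were lower in females at an FDR of 0.05 in the quasi-likelihood test of edgeR. It called 83% of all 15675 genes different between the sexes and 43.6% of all genes lower in females, and the median difference over all genes was -0.10 on the log2 scale against -0.85 over the 10. Female and male libraries did not separate fully for any member, whereas 18.5% of all genes had every female library below every male library. This rested in part on scaling and on the Obp50cBCD male replicate J3_S53 of the redo set, which had a scaling factor of 1.51 and was the lowest male library for *ninaE*, *Rh4*, *norpA*, *trp* and *Arr2*. Without it *norpA* and *trp* separated fully (2 of 10, beside 20.4% of all genes). With library totals alone 5 of 10 did, *Rh3*, *Rh6*, *norpA*, *trp* and *ninaC* (beside 21.3% of all genes).

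Among the opsins, *ninaE* ranged from 1188 to 2323 CPM in females (median 1715) and from 1649 to 3573 CPM in males (median 2558), and 13 of the 26 female libraries were below the lowest male library. The log2 difference, female minus male, was -0.70 ± 0.073 (SE; FDR = 7.1e-12). *Rh3*, an ultraviolet-sensitive opsin of inner photoreceptors, ranged from 20.3 to 61.6 CPM in females (median 45.4) and from 54.8 to 84.1 CPM in males (median 66.7). Most of its female libraries, 23 of 26, were below every male library, and the difference was -0.72 ± 0.090 (SE; FDR = 8.8e-10). *Rh4*, the other ultraviolet-sensitive opsin, ranged from 18.7 to 59.02 CPM in females (median 36.98) and from 36.6 to 67.6 CPM in males (median 55.2). Its sexes overlapped more, with 13 of 26 female libraries below the lowest male, and the difference was -0.70 ± 0.099 (SE; FDR = 1.8e-08). *Rh6*, the green-sensitive opsin, ranged from 12.2 to 40.9 CPM in females (median 24.4) and from 34.3 to 58.4 CPM in males (median 45.7). It had the largest difference of the 4 opsins, -0.91 ± 0.075 (SE; FDR = 4.1e-15), with 23 of 26 female libraries below the lowest male.

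The phospholipase gene *norpA* ranged from 147 to 368 CPM in females (median 259) and from 296 to 609.8 CPM in males (median 493). In 18 of 26 female libraries it was below the lowest male library, and the log2 difference was -0.89 ± 0.080 (SE; FDR = 5.7e-14). Of the channels, *trp* ranged from 83.4 to 197 CPM in females (median 141) and from 174 to 363 CPM in males (median 279). Its difference was -0.99 ± 0.075 (SE; FDR = 2.6e-16), and 21 female libraries were below the lowest male. *trpl* ranged from 68.5 to 182 CPM in females (median 118) and from 158 to 359 CPM in males (median 263). Its difference of -1.10 ± 0.077 (SE; FDR = 1.7e-17) was the largest of the 10, with 23 female libraries below the lowest male.

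*ninaC* ranged from 83.5 to 264 CPM in females (median 199) and from 258 to 445 CPM in males (median 379). The sexes came close to separating, with 24 of 26 female libraries below the lowest male, and the log2 difference was -0.93 ± 0.091 (SE; FDR = 1.1e-12). *Arr1* ranged from 140.3 to 330.0 CPM in females (median 222) and from 251 to 438 CPM in males (median 335). It had the smallest difference of the 10, -0.63 ± 0.075 (SE; FDR = 2.1e-10). *Arr2* ranged from 278 to 619 CPM in females (median 409.8) and from 448 to 915 CPM in males (median 691), with a difference of -0.80 ± 0.079 (SE; FDR = 1.7e-12). For each arrestin 17 of 26 female libraries were below the lowest male.

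The sex difference of all 10 was called within the first set of libraries alone, where it ran from -1.12 (*trpl*) to -0.63 (*Arr1*) on the log2 scale. Within the second set 8 of 10 were called, and *Rh4* (-0.63, FDR = 0.060) and *Arr1* (-0.52, FDR = 0.072) were not. The share of all genes called within a set is not given here. With both sets and the redo it was 83%, and 43.6% were called lower in females. Within single genotypes the direction was female lower for every member. In Obp50a, Obp50b, Obp50c and Obp50Neg all 10 were called, beside 35.9%, 33%, 33.5% and 34.3% of genes called lower in females. In Obp50cBCD 5 of 10 were called beside 36% of genes, and *ninaE* (-0.38, FDR = 0.064), *Rh3* (-0.32), *Rh4* (-0.45), *Arr1* (-0.33) and *Arr2* (-0.39) did not pass. In Obp50d 9 of 10 were called beside 30.6% of genes, all but *norpA* (-0.36, FDR = 0.24). In Obp50NegBCD 9 were called beside 37.1% of genes, all but *Rh4* (-0.32, FDR = 0.22). In Obp50Pos, where the 1 female library is assumed to vary like those of other groups, 7 were called beside 24.3% of genes. The test of whether the sex difference varied among genotypes called 0 of the 10, against 1.97% of all genes. None of the 10 had an unadjusted p under 0.05 in that test (0 of 10), and DESeq2, limma-voom and the mixed model also called 0. The share of all genes called in those other fits is not given here.

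**Figure D2:**
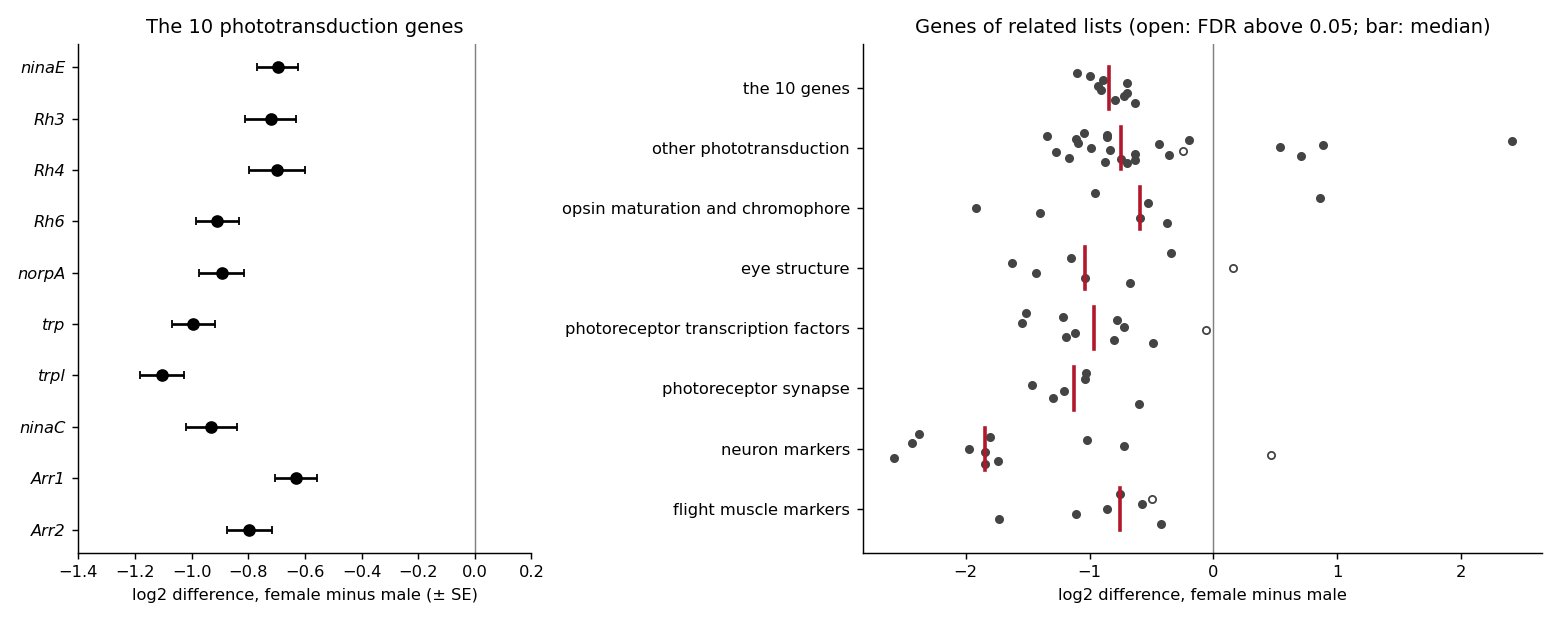
Log2 difference, female minus male, of the 10 genes with standard errors (left panel), and of the same genes beside genes of 7 related lists (right panel; filled points passed an FDR of 0.05, open points did not, red bars are list medians). All 10 genes lie between -1.10 and -0.63, and the list medians of the other eye lists lie between -1.12 and -0.59.

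Other genes of the eye were also mostly lower in females. Of 23 further phototransduction genes, 18 were lower, 4 were higher and 1 did not pass the test, with a median log2 difference of -0.75. The largest were *rdgC* (-1.35), the rhodopsin phosphatase, the opsin gene *Rh7* (-1.27) and *Ggamma30A* (-1.17), the G protein gamma subunit of the eye, all lower, while *inaF-D* was higher (2.41). The other 3 that were higher, *inaF-A* (0.88), *Gprk1* (0.71) and *inaE* (0.54), include a kinase and a lipase gene that are not restricted to the eye. *inaF-A* was near the floor, with means of 0.29 CPM in females and 0.16 CPM in males (FDR = 0.048). Of 7 tested genes of opsin maturation and chromophore supply, 6 were lower and 1 was higher (median -0.59). *ninaD* (-1.92) and *santa-maria* (-0.96), scavenger receptors that take up carotenoids, and *ninaB* (-1.403), the enzyme that cleaves them, were lower, and the retinoid binding protein gene *pinta* was higher (0.86). *ninaA*, the chaperone of the main opsin, and *Xport-A* were listed at 0 in every library and *Xport-B* at no more than 6 counts, so these 3 were not tested.

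Genes of eye structure were lower in 6 of 7 cases (median -1.03), among them *eys* (-1.62), *chp* (-1.44) and *prom* (-1.15), which shape the rhabdomeres and the space between them, and *PIP82* (-1.03). Of 10 photoreceptor transcription factor genes 9 were lower (median -0.96), led by *salm* (-1.55), *ss* (-1.52), *so* (-1.22) and *ey* (-1.19). All 6 genes of the photoreceptor synapse were lower (median -1.12), among them *Hdc* (-1.30), which makes the transmitter histamine, its receptors *HisCl1* (-1.204) and *ort* (-1.04), and *e* (-1.47), which acts in its recycling.

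Lists for other cell types moved with sex as well, and their part in the difference of the 10 genes was not tested. Of 11 neuron genes 10 were lower in females (median -1.84; *Rdl* -2.58, *brp* -2.43, *para* -2.38, *VAChT* -1.98), and of 7 flight muscle genes 6 were lower (median -0.75; *Mhc* -1.73, *Mlc2* -1.11, *Tm2* -0.86, *up* -0.75). The rest of the flight muscle list differed less, with *TpnC4* at -0.57, *fln* at -0.50 (not called, FDR = 0.078) and *Act88F* at -0.42. All 12 ovary and egg genes were higher in females (median 7.28; *Cp38* 8.17, *Cp36* 7.83, *Yp2* 7.74, *Yp1* 7.71), and all 8 male reproductive genes were lower (median -8.64; *SP* -10.44, *Acp26Aa* -9.73, *Acp36DE* -9.65, *Mst84Dc* -8.73). Summed without scaling factors, the 10 genes took 2098 to 3753 CPM of female libraries and 4257 to 6675 CPM of male libraries. The ovary and egg list took 10499 to 48413 CPM in females and 22.4 to 3431 CPM in males. The neuron list took 468 to 3159.8 CPM in females and 1645 to 4187 CPM in males. Flight muscle genes took 2385 to 4890 CPM in females and 6128 to 12927 CPM in males.

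Ratios between 2 members in the same library do not depend on library scaling, and 3 of 8 ratios differed between the sexes. Relative to *ninaE*, *ninaC* was lower in females. The ratio per kb was 0.0340 ± 0.0048 (SD, n = 14 lines) in females and 0.0408 ± 0.0061 in males, lower in females in 13 of 14 lines, with a log2 difference of -0.27 (two-sided exact sign-flip permutation test, adjusted p = 0.0020 over 8 ratios). *Rh6* was also lower relative to *ninaE*, at 0.0169 ± 0.0022 in females and 0.0194 ± 0.0027 in males, in 12 of 14 lines, with a log2 difference of -0.20 (exact permutation test, adjusted p = 0.0068). Between the arrestins, *Arr1* to *Arr2* was 0.346 ± 0.030 in females and 0.308 ± 0.020 in males. This ratio was higher in females in 13 of 14 lines, with a log2 difference of 0.16 (exact permutation test, adjusted p = 0.0034). The smallest p this test can give with 14 lines is 0.00012.

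The other 5 ratios did not pass. *trpl* to *trp* was 0.902 ± 0.096 in females and 1.00 ± 0.18 in males, lower in 11 of 14 female lines (log2 difference -0.14, exact permutation test, adjusted p = 0.059). *Arr2* to *ninaE* was 0.254 ± 0.024 and 0.271 ± 0.021 (log2 difference -0.09, exact permutation test, adjusted p = 0.085). *Rh3* to *Rh4*, a pair of opsins used by alternative classes of inner photoreceptor, was 1.17 ± 0.21 in females and 1.22 ± 0.14 in males (log2 difference -0.07 ± 0.085 SE, exact permutation test, adjusted p = 0.57). The sum of *Rh3* and *Rh4* relative to *ninaE* was 0.0542 ± 0.0085 and 0.0546 ± 0.0079 (exact permutation test, adjusted p = 0.84). *trp* to *norpA* had means of 1.18 in females and 1.14 in males (exact permutation test, adjusted p = 0.84), but its SD over lines was 0.417 in females and 0.142 in males. Within the first set of libraries, with 10 lines, *ninaC* to *ninaE* and *Arr1* to *Arr2* still passed (adjusted p = 0.031 each, exact permutation test), *Rh6* to *ninaE* did not (log2 difference -0.22, adjusted p = 0.055), and *Arr2* to *ninaE* passed (log2 difference -0.14, adjusted p = 0.031).

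**Figure D3:**
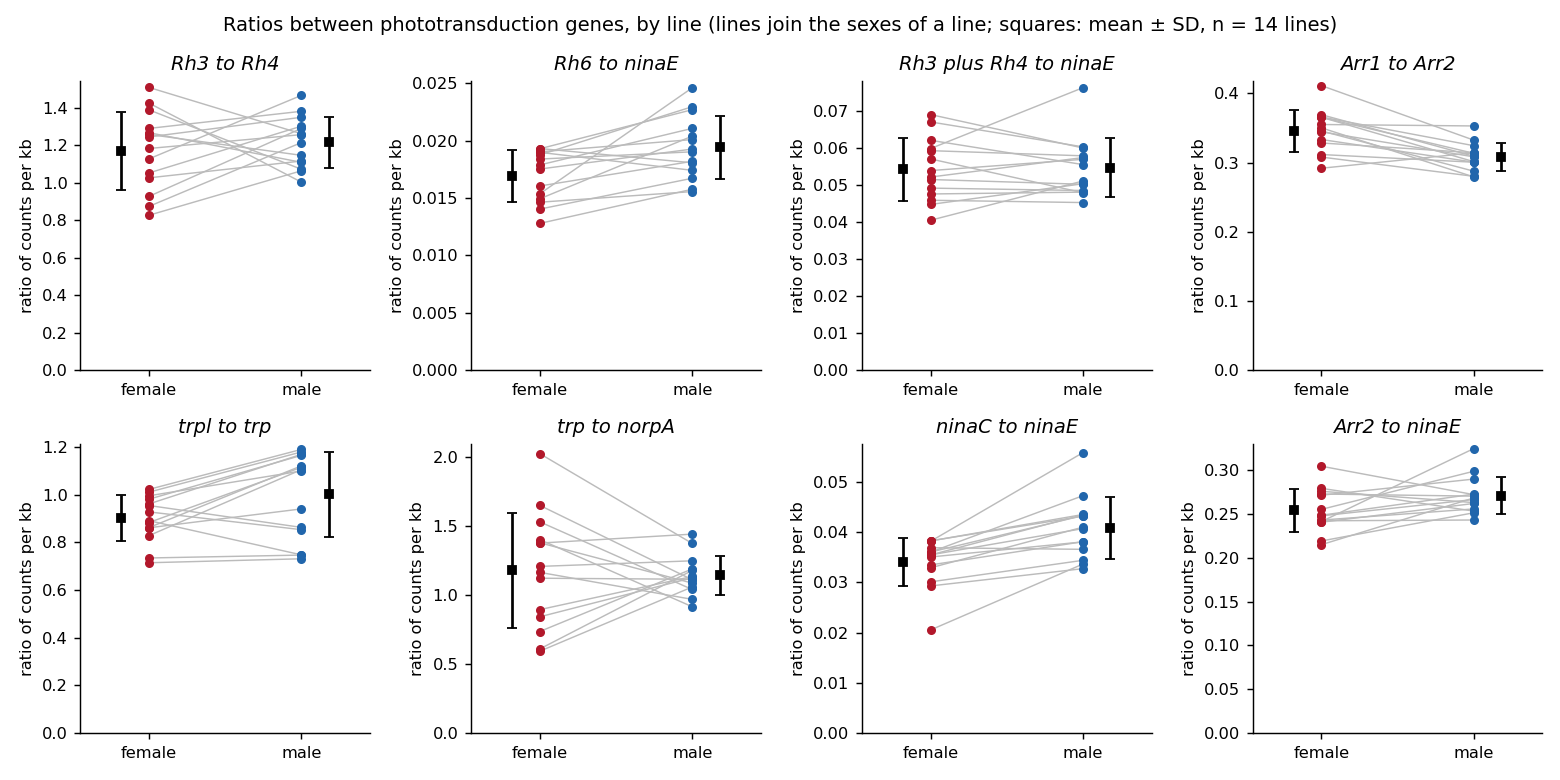
Ratios of counts per kb between members (vertical axes, from 0) in females (red) and males (blue), 1 point per line, with grey lines joining the sexes of a line and squares with bars for the mean and SD over 14 lines. The female points are lower for *ninaC* to *ninaE* (0.0340 against 0.0408) and higher for *Arr1* to *Arr2* (0.346 against 0.308), and *trp* to *norpA* is more spread out among female lines.

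Between genotypes, which asks whether the state of the *Obp50* cluster goes with the level of these genes, no member was called in males. The joint test over the 8 male genotypes called 0 of 10 beside 2.98% of all genes. The nearest were *trpl* (FDR = 0.082) and *ninaE* (FDR = 0.095), 3 of the 10 had an unadjusted p under 0.05, DESeq2 called 2, and limma-voom, with a random effect of line, called 0. Male genotype means of a member spanned 1.21-fold (*norpA*) to 1.68-fold (*trpl*). In the 9 male contrasts of the study design 0 of 90 pairs of gene and contrast were called, beside 0.227% of pairs over all genes, and 16 pairs had an unadjusted p under 0.05, as did 10601 of 141075 pairs over all genes. DESeq2 and limma-voom called 0 of these pairs. The share of all genes that DESeq2 and limma-voom called in these male tests is not given here.

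In females the same joint test called 6 of 10, beside 24.6% of all genes: *ninaE* (FDR = 0.014), *Rh4* (FDR = 0.049), *Rh6* (FDR = 0.0026), *norpA* (FDR = 0.031), *trpl* (FDR = 0.0096) and *Arr1* (FDR = 0.038). *Rh3*, *trp*, *ninaC* and *Arr2* were not called (FDR = 0.12, 0.19, 0.24 and 0.060). Female genotype means spanned 1.56-fold (*trp*, *trpl* and *ninaC*) to 2.42-fold (*Rh4*). Obp50d had the lowest female mean of 9 members and the highest of *norpA*. These female calls were not kept by other fits: with counts summed by line, with a random effect of line in limma-voom, or in the mixed model, 0 of 10 were called, and 0 with the females fitted alone. When set was added as a term, 3 of 10 were called. The share of all genes called in these other fits is not given here, so their counts do not set the members apart from other genes.

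Of the 90 pairs in the 9 female contrasts 2 were called, beside 2.33% of pairs over all genes, and 29 had an unadjusted p under 0.05, as did 20741 of 141075 pairs over all genes. *Rh6* was lower in Obp50d females, at 12.2 and 15.2 CPM, than in Obp50Neg females, at 27.1, 27.5, 30.2 and 35.8 CPM. The groups did not overlap, and the log2 difference was -1.14 ± 0.22 (SE; 2.20-fold, FDR = 0.0099), in a contrast that called 0.823% of all genes and 0.663% as lower. The FDR was 0.088 without the Obp50d replicate 67_S36 and 0.37 without the replicate 64_S44. The call was also lost in 4 of 12 other alternatives, with each sex fitted alone (FDR = 0.33), counts summed by line (FDR = 0.67), a random effect of line in limma-voom (FDR = 0.125) and the mixed model. The other members of this contrast did not pass: *Rh4* (-1.12, FDR = 0.054), *Rh3* (-0.77), *ninaE* (-0.75, FDR = 0.071), *Arr1* (-0.71), *Arr2* (-0.67), *ninaC* (-0.64), *trpl* (-0.64), *trp* (-0.60) and *norpA* (0.48, FDR = 0.22). The median of the 10 genes, *Rh6* included, was -0.69 against -0.19 over all genes. Both Obp50d libraries came from the single line 7, so line and genotype cannot be told apart. In males the same contrast gave -0.53 for *Rh6* and -0.63 for *trpl*, the only 2 members with an unadjusted p under 0.05 there, and 0 of 10 passed beside 0.0128% of all genes.

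*ninaE* was lower in Obp50b females, at 1293, 1325, 1346 and 2069 CPM, than in Obp50NegBCD females, at 1793, 2168, 2169 and 2323 CPM. The groups overlapped through the Obp50b replicate 34_S26, and the log2 difference was -0.49 ± 0.17 (SE; FDR = 0.047) in a contrast that called 14.5% of all genes and 8.27% as lower. The call was lost when any of 36 of the 54 libraries was left out, with FDR values up to 0.24, and in 8 of 12 other alternatives. Without replicate 34_S26 the difference was -0.68 (FDR = 0.0060). With library totals and no scaling factors it was -0.22 (FDR = 0.28), and the Obp50b values were then 1310.3, 1359.7, 1769.8 and 1904 CPM.

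The difference between the lines of a genotype could be tested in the 6 genotypes with 2 lines. The joint test called all 10 members in females, beside 48% of all genes, and only *ninaC* in males (FDR = 0.0056), beside 10.3% of all genes. Female line means spanned 1.80-fold (*ninaE*) to 2.84-fold (*Rh4*), and male line means 1.46-fold (*norpA*) to 1.83-fold (*ninaE*).

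**Figure D4:**
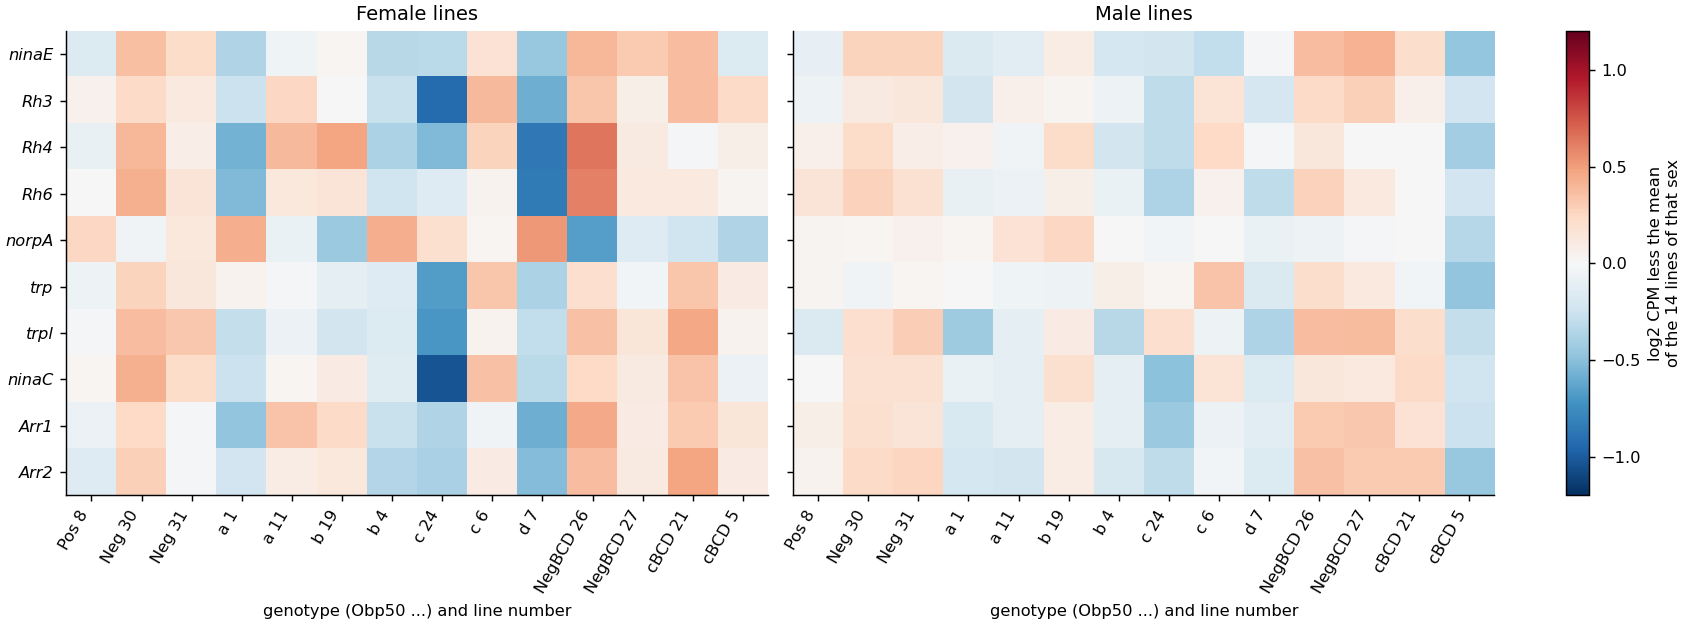
Log2 CPM of the 10 genes (rows of the map) in each of the 14 lines (columns, by genotype and line number), as the difference from the mean of the 14 lines of that sex, in females (left) and males (right); red is higher and blue is lower. In females *ninaC*, *Rh3*, *trp* and *trpl* are lowest in Obp50c line 24, most members are low in Obp50d line 7, and *norpA* takes the opposite colour to the other genes in several lines.

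The widest differences between lines were in Obp50c females, where 7 of the 10 genes were lower in line 24 than in line 6, beside 26.7% of all genes called and 14.1% called lower. *ninaC* was at 83.5 and 101 CPM in line 24 and at 237 and 245 CPM in line 6, a log2 difference of -1.39 ± 0.14 (SE; FDR = 1.1e-08). *Rh3* was at 20.3 and 23.1 CPM against 50.4 and 57.8 CPM (-1.32 ± 0.19 SE; FDR = 4.6e-06), and *trp* at 83.4 and 91.9 CPM against 175 and 176 CPM (-1.003 ± 0.16 SE; FDR = 2.4e-05). For these 3 genes the lines were apart by more than the spread within either line. *Rh4* (-0.79, FDR = 0.0014), *trpl* (-0.74, FDR = 0.0026), *ninaE* (-0.49, FDR = 0.024) and *Arr2* (-0.49, FDR = 0.042) also passed. *Rh6* (-0.19), *Arr1* (-0.32) and *norpA* (0.17) did not. In males of the same lines *ninaC* was at 258 and 262 CPM in line 24 and at 382 and 439 CPM in line 6 (-0.66, FDR = 0.0017), and *Rh4* also passed (-0.55, FDR = 0.045), beside 11.7% of all genes called and 7.02% called lower. Without the male libraries that held yolk transcripts the call for *Rh4* was lost (-0.44, FDR = 0.25).

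Other transcripts moved with the female lines of Obp50c, and their part was not tested. Yolk protein transcripts summed to 7123 and 8075 CPM in line 24 and to 22347 and 26549 CPM in line 6. The ovary and egg list was at 10499 to 12246 CPM against 31854 to 37144 CPM, and the neuron list at 2095 to 3159.8 CPM against 568 to 604 CPM. Such a sum is weighted to the genes with the most counts, and line differences of single neuron genes are not given here. Between Obp50c and Obp50Neg females the 11 neuron genes ran from -0.24 to 3.07 on the log2 scale. In that contrast 1 of the 11 was called, beside 1.35% of all genes. Flight muscle genes summed to 2385 to 2935 CPM against 3633 to 3885 CPM, and eye structure genes to 147 to 158 CPM against 262 to 279.9 CPM. Without the line 24 replicate 42_S14 the call for *trpl* was lost (FDR = 0.051). The calls for *ninaE* and *Arr2* were lost without any of 16 and 19 libraries.

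In Obp50b females *Rh4* was higher in line 19 than in line 4 (39.2 and 59.02 CPM against 25.3 and 28.1; log2 difference 0.88, FDR = 5.6e-04), as were *Arr1* (0.53, FDR = 0.011) and *Arr2* (0.53, FDR = 0.031), beside 21.3% of all genes called, 7.65% higher and 13.7% lower. *norpA* went the other way, with 147 and 233 CPM in line 19 and 328 and 355 CPM in line 4 (-0.84, FDR = 0.0010), and its call was lost without replicate 33_S25 (FDR = 0.060). Without replicate 34_S26 the difference was 0.55 for *Rh4* (FDR = 0.048), 0.16 for *Arr1* (FDR = 0.50) and 0.11 for *Arr2* (FDR = 0.73). The call for *Arr1* was also lost without 54_S31 (FDR = 0.096), and that for *Arr2* in 17 of 54 cases. In Obp50a females *Rh4* (21.5 and 25.4 CPM in line 1 against 40.7 and 50.2 CPM in line 11; -0.95, FDR = 1.6e-04), *Arr1* (-0.81, FDR = 1.2e-04) and *Rh6* (-0.66, FDR = 0.0090) were lower in line 1, beside 34.6% of all genes called, 16.9% higher and 17.7% lower. Without replicate 84_S36 the calls for *Rh4* (-0.46, FDR = 0.091) and *Arr1* (-0.40, FDR = 0.061) were lost, and that for *Rh6* was lost in 17 of 54 cases and with library totals (-0.45, FDR = 0.099). Again *norpA* was opposite, at 328 and 353 CPM in line 1 and at 221 and 255 CPM in line 11 (0.51, FDR = 0.032). Its call was lost without replicate 61_S41, 62_S42 or 83_S35 (FDR = 0.066, 0.15 and 0.18). Leaving out any of 14 libraries of other groups also moved these differences, all upward. They went from -0.95 to -0.61 for *Rh4*, -0.81 to -0.47 for *Arr1*, -0.66 to -0.32 for *Rh6* and 0.51 to 0.86 for *norpA*. The libraries of lines 1 and 11 were the same in these fits, and the part of the scaling factors was not tested.

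No member was called between the female lines of Obp50Neg, Obp50NegBCD and Obp50cBCD (line 5 of the last with 1 library, assumed to vary like the others), beside 0.121%, 6.97% and 7.26% of all genes. In those pairs 0, 4 and 2 members had an unadjusted p under 0.05. In Obp50cBCD males 3 members were higher in line 21 than in line 5: *ninaE* (0.66, FDR = 0.010), *Arr2* (0.76, FDR = 0.0074) and *ninaC* (0.47, FDR = 0.027), beside 12.2% of all genes called and 7.95% called higher. In males of Obp50Neg, Obp50NegBCD, Obp50a and Obp50b 0 members passed, beside 0.051%, 0.0128%, 0.376% and 0.108% of all genes, and 0, 0, 0 and 3 had an unadjusted p under 0.05. With library totals and no scaling factors none of the 3 in Obp50cBCD passed (0.31, 0.40 and 0.10), and none passed without replicate 27_S44 or without J3_S53, while *ninaC* was also lost without 28_S12. The male libraries of line 21 came from the first set and those of line 5 from the second set and the redo, so line and set cannot be told apart.

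Whether a line difference itself differed between the sexes was tested after the line results had been seen. The joint test called *norpA* (FDR = 0.011) and *Rh4* (FDR = 0.018), beside 23.7% of all genes. The line difference of *norpA* in Obp50b was lower in females than in males by 1.09 on the log2 scale (FDR = 0.0047, beside 9.44% of genes called lower): line 19 had the higher male values, 553 and 609.8 CPM against 450 and 533 CPM in line 4. In Obp50a the line difference of *Rh4* was -1.05 in females relative to males (FDR = 0.0040) and that of *Arr1* was -0.74 (FDR = 0.014), beside 11.4% of genes called lower. In Obp50c it was -0.98 for *trpl* (FDR = 0.016), -0.85 for *Rh3* (FDR = 0.046) and -0.73 for *ninaC* (FDR = 0.019), beside 3.69% of genes called lower. All Obp50c libraries were in the first set. In Obp50a the males of line 1 were in the first set and the other libraries in the second, so the line by sex difference and set cannot be told apart, and in Obp50b 1 library of line 4 in each sex lay outside the first set.

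The level of *norpA* among female lines ran against that of the other members, a pattern noticed in these data. Its 2 highest female libraries, 356 and 368 CPM, were those of Obp50d line 7, where most other members were lowest. It was at 328 and 355 CPM in Obp50b line 4 and at 328 and 353 CPM in Obp50a line 1. The lowest female line mean was that of Obp50NegBCD line 26, at 153 and 164 CPM, where *ninaE* was at 2168 and 2169 CPM. Per kb, *norpA* to *ninaE* ranged from 0.0140 in Obp50NegBCD line 26 to 0.0577 in Obp50d line 7 among female lines, and from 0.0262 to 0.0439 among male lines.

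Over the 14 female line means of log2 CPM, *norpA* and *ninaE* had a Pearson r of -0.69 (permutation test, p = 0.0076, adjusted p = 0.010 over 18 relations) and a Spearman rho of -0.72 (permutation test, p = 0.0044, adjusted p = 0.0078). These p-values are a description, since the pattern was noticed in the same data. The permutation also treated lines of the same genotype as independent. Without the 2 lines farthest from the median of *ninaE*, r was -0.53. Within the first set of libraries r was -0.74 and rho -0.78 (10 lines), and within the second set r was -0.80 and rho -0.77 (6 lines). The other 8 members had r between 0.73 and 0.89 with *ninaE* in females and rho between 0.71 and 0.90, given as a description because all genes share the scaling of a library. In males *norpA* had r = 0.33 (permutation test, p = 0.26) and rho = 0.21, and within the first set r = -0.15 over 11 lines. The second set held 3 male lines, too few for a value. *trp* also had a low r with *ninaE* in males (0.33, rho 0.16), and the other 7 had r between 0.55 and 0.92. The difference between the sexes in these correlations was not tested.

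**Figure D5:**
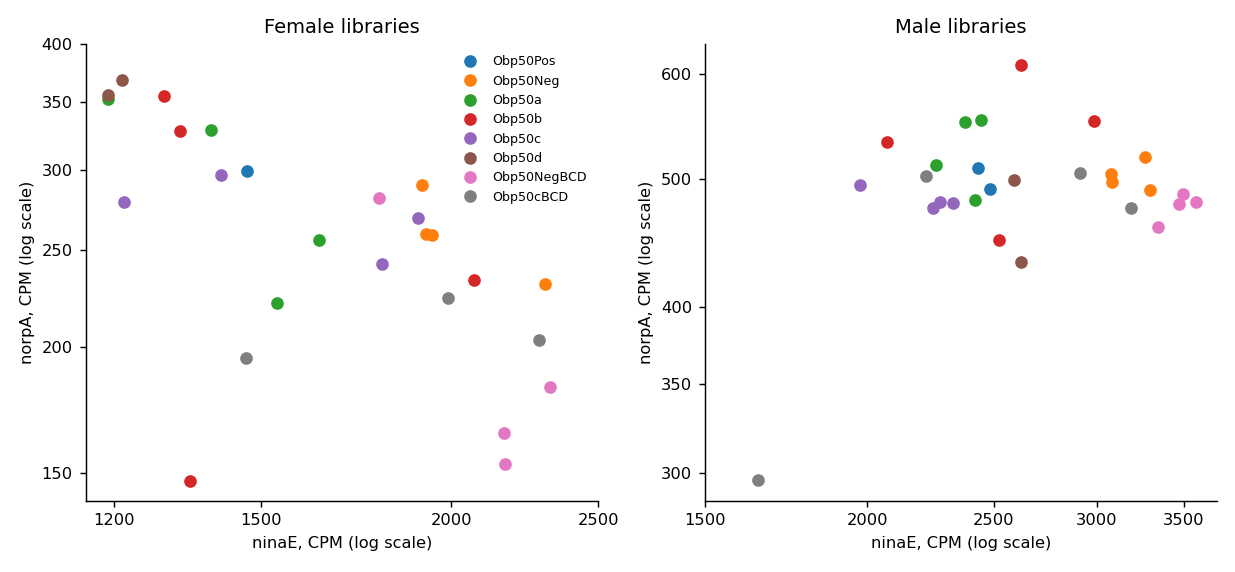
*norpA* against *ninaE* in the 26 female (left) and 28 male (right) libraries, both in CPM on log axes, coloured by genotype. Among females, *norpA* is highest in the Obp50d libraries (356 and 368 CPM), where *ninaE* is low, and the Obp50b replicate 33_S25 is low in both (147 and 1346 CPM). Male libraries show no such slope, with the Obp50cBCD replicate J3_S53 (296 CPM of *norpA*) apart from the others.

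Over the 54 libraries, with the mean of each sex removed, 9 of the 10 members moved together. The correlation of a member with the mean of the others, given as a description since all share the scaling of a library, was 0.92 for *Arr2*, 0.88 for *Rh3*, 0.87 for *ninaE*, 0.86 for *ninaC* and *Arr1*, 0.78 for *Rh4*, 0.76 for *trp* and *trpl*, and 0.72 for *Rh6*. For *norpA* it was -0.43 (-0.65 in females and 0.30 in males). Of all genes that are not members, *Gbeta76C*, the G protein beta subunit of the eye, was most like the mean of the 10 (r = 0.91). It was followed by *Mitofilin* (0.90), *Pdhb* (0.89), *Cyp6g1* (0.89), *Srp54k* (0.88), *CG7910* (0.88), *ScsbetaA* (0.88), *CG12338* (0.87), *GstE12* (0.87) and *CG7834* (0.87).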

How the data were processed

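Reads from rRNA-depleted libraries of whole flies were merged over lanes, trimmed with AfterQC, screened for rRNA, aligned with GSNAP to release 6.13 and assigned to exons with featureCounts 1.6.4 without regard to strand by the authors, who deposited unnormalized counts of uniquely mapped fragments per gene. The filter on low counts required a median of 2 or more over the 54 libraries and a nonzero value in at least 25% of them. In R 4.3.3, edgeR 4.0.16 (TMM, quasi-likelihood test) was fitted with 16 means of sex and genotype, and again with 28 means of sex and line, with Benjamini-Hochberg adjustment over 15675 genes and an FDR of 0.05. CPM are TMM-scaled unless stated. Line means of log2 ratios per kb were compared by exact sign-flip permutation. The 10 genes and the other lists were chosen with earlier results of these data known. All 10 genes are named throughout, with up to 4 genes of the largest change per list and the 10 genes most correlated with their mean; exceptions are stated. Alternatives were DESeq2 1.42.0 and its size factors, library totals, other filters, all 56 libraries, male libraries with yolk transcripts left out, each sex alone, set as a term, counts summed by line, limma 3.58.1 (voom), the study's mixed model (lmerTest 3.1.3) on GeTMM values, and each library left out. Chosen after seeing the data were the test of line by sex, single sets, line as a fixed block, and the overlap of the sexes without 1 library or scaling. The edgeR procedure was run on simulated data in which few genes changed, up and down in equal number. In the real data 83% of genes were called between the sexes, so the simulation did not test the scaling under such a difference.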

Additional observations from a re-analysis of the deposited data

Results flagged for a closer look

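Single libraries stood apart from the other 3 of their group in 7 of 110 pairs of gene and group of 4 libraries. For independent pairs, chance alone gives about 1 in 20. The pairs are not independent, since the genes share libraries and most flags came from 1 library. A group of 4 also holds 2 lines, so a gap can include a line difference. In Obp50b females, replicate 34_S26 of line 19 was high for *Arr2* (574 CPM, others 313 to 343), *Rh3* (50.9 CPM, others 33.04 to 34.3), *ninaC* (249 CPM, others 164 to 173) and *ninaE* (2069 CPM, others 1293 to 1346). Unscaled, *ninaE* was at 1904 CPM there and at 1769.8 CPM in the other library of line 19, and *Rh3* at 46.9 and 43.4 CPM. The part of the scaling factors in these gaps was not tested. In Obp50Neg females, replicate 5_S5 of line 30 was high for *ninaE* (2306 CPM, others 1913 to 1942). In Obp50NegBCD females, replicate 18_S10 of line 26 was high for *trp* (180.2 CPM, others 136 to 143). In Obp50cBCD males, replicate J3_S53 of line 5 was low for *norpA* (296 CPM, others 475 to 505). It had the smallest total count (14638498) and a scaling factor of 1.51, and unscaled its *norpA* was at 446 CPM against 476, 508 and 556 CPM.

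In edgeR's test of the difference with Benjamini-Hochberg adjustment, 6 differences between the lines of a genotype differed between females and males. Of all genes, 22.3% were called in Obp50a, 12.8% in Obp50b and 7.43% in Obp50c. The joint test over genotypes did not call *Rh3* (FDR = 0.18), *trpl* (FDR = 0.066), *ninaC* (FDR = 0.070) or *Arr1* (FDR = 0.068). On the log2 scale, as the female less the male line difference, *norpA* was at -1.09 in Obp50b. In Obp50c *Rh3* was at -0.85, *trpl* at -0.98 and *ninaC* at -0.73. In Obp50a *Rh4* was at -1.05 and *Arr1* at -0.74, and there set and the line by sex difference cannot be told apart. The call for *norpA* held without each of the 54 libraries (FDR between 7.2e-05 and 0.047). That for *Rh4* was lost without 1 library (FDR up to 0.10), that for *trpl* without 4 (up to 0.12), that for *ninaC* without 5 (up to 0.14), that for *Arr1* without 17 (up to 0.23) and that for *Rh3* without 22 (up to 0.19).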

How the results depend on the processing

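The sex difference of the 10 genes kept its call in 678 of 680 values over 14 alternatives and 54 left-out libraries, with its direction kept in all. The 2 exceptions were *Rh4* and *Arr1* in the second set. With line as a fixed replicate block all 10 were called (*norpA* -0.96, *ninaE* -0.68), and the block was run for this comparison alone, since label replicate numbers do not pair the libraries while the sexes share lines. Without scaling factors the differences ran from -1.26 (*trpl*) to -0.79 (*Arr1*). *Rh6*, the lowest gene, had at least 12.2 CPM in each of the 54 libraries, and 1 or 2 libraries per line and sex limit every line value. The cause of the changes below was not tested. The counts of members below are given without the share of all genes called in the same setting. By themselves they do not set the members apart from other genes.

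The number of female genes called between genotypes (6) was 0 in the mixed model, 0 in limma-voom with a random effect of line, 0 when counts were summed by line and 0 when each sex was fitted alone, 3 with set as a term, and 3 to 8 without single libraries, with 3 in 16 cases. The 2 calls in the 9 female contrasts became 4 with DESeq2 size factors, 7 with library totals, 4 without a filter, 5 with a mean count of at least 10, 4 without yolk males, 0 with each sex alone, 1 with set as a term, 0 summed by line, 0 in limma-voom, 10 with DESeq2 and 0 in the mixed model. They were 0 to 8 without single libraries (0 without Obp50d 67_S36, 8 without Obp50b 34_S26). In males, genes called between genotypes (0) were 1 with library totals, 3 with each sex alone, 2 with DESeq2 and 0 to 2 without single libraries, and calls in the 9 contrasts (0) were 2 with each sex alone and 0 to 1 without single libraries. Genes called between male lines (1) were 2 with all 56 libraries, 0 without yolk males, 4 with each sex alone, 2 with set as a term, 3 with DESeq2 and 1 to 6 without single libraries (6 without Obp50b J1_S51). Genes called between female lines (10) were 6 with all 56 libraries and 6 to 10 without single libraries, with 6 without the males 3_S3, 23_S40 or 24_S41 or the females 54_S31 or 84_S36. The line by sex count (2) was 4 with DESeq2 size factors, 4 with library totals, 4 without a filter, 6 with a mean count of at least 10, 1 without yolk males, 6 with DESeq2 and 1 to 5 without single libraries (5 without Obp50b 34_S26). The ratio of *Rh3* plus *Rh4* to *ninaE*, which was not called, changed sign with all 56 libraries (log2 difference 0.0065), as did *trp* to *norpA* without yolk males (0.032). *trpl* to *trp* passed without yolk males (-0.17, exact permutation test, adjusted p = 0.046) and ran from -0.16 to -0.11 without single libraries. *Rh6* to *ninaE* did not pass within the first set (-0.22) and *Arr2* to *ninaE* did (-0.14), the latter running from -0.11 to -0.084 without single libraries. Of the 28 named line and genotype differences, none reversed. They kept their call in 1319 of 1512 values without single libraries and in 212 of 249 under the other alternatives.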
